A study of Rattus norvegicus with 56 samples.

Results

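The parietal cortex of young rats was compared between 4 animals that received intermittent theta burst stimulation (iTBS) and 4 sham animals, which are 8 of the 56 arrays of the series. The members were chosen by the array titles alone, Y_iTBS 1 to 4 against Y_Sham 1 to 4 of the cortex, with the first array of each animal only. In iTBS, one of the protocols of repetitive transcranial magnetic stimulation (rTMS), a coil held over the head delivers short bursts of magnetic pulses with pauses between them, which induce electric currents in the tissue below. Trains of such bursts are used to change cortical excitability, and are known to alter transmission at glutamatergic and GABAergic synapses for longer than the stimulation itself lasts. In the cortex the genes most often followed after activity are the immediate early genes, which respond within minutes and return soon after, and the slower neurotrophin, receptor and channel genes. A block of neocortex holds neurons together with astrocytes, oligodendrocytes, microglia and vessels, and a varying amount of the meninges that cover it.

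Both groups were male Long-Evans rats of 6 to 7 months, an outbred strain used for work on memory and aging. By the labels they had been tested in a water maze beforehand, and each was lightly anesthetized with isoflurane and sedated with dexmedetomidine (0.035 mg/kg), reversed afterwards with Antisedan, so that stress, sedation and handling were shared by stimulated and sham animals. Y_iTBS animals had the middle of the coil held 8 mm over the skull, while for Y_Sham animals it was kept away from the head. Stimulation was kept weaker than needed for a visible muscle twitch. Neocortex under the center of the coil was taken 48 h later and frozen, so that the early response to the pulses lies before the time measured. For comparison, the hippocampus of the same 8 animals was read on further arrays, as was the cortex of 16 aged rats of 26 to 27 months (4 AU_Sham, 5 AU_iTBS, 4 AI_Sham and 3 AI_iTBS, where AU and AI are aged-unimpaired and aged-impaired in the maze), sedated with 0.03 mg/kg dexmedetomidine. These numbers follow the labels, and the methods of the study state fewer aged rats.

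Values are normalized log2 signals on 1-color Agilent arrays, on which 0 is the mean of an array, so that a level is relative to the other probes of the same array. On average 64.7% ± 0.928 (SD, n = 4) of the probes were well above background in Y_Sham cortex and 63.5% ± 2.24 (SD, n = 4) in Y_iTBS cortex. In the 8 animals, 7 of 18 excitatory and cortical layer markers were higher in cortex than in the hippocampus of the same animal every time, among them Foxp2 by 2.99, Lamp5 by 1.37 and Tbr1 by 1.16 on the log2 scale. The hippocampal marker Klk8 was lower in cortex by 7.29 on average, and Htr5b was above background on 1 of the 8 cortex arrays. Others of the list, such as Bcl11b and Neurod6, were higher in hippocampus in all 8 animals.

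2 of the sham arrays stood apart. On the array of Y_Sham 4, 472 probes lay more than 2 log2 units below all other 7 young cortex arrays, where the others had 0 to 11 such probes. Of these, 463 (98.1%) had all their spots in 1 corner of the array, whose bounds were set by eye from their positions. That corner holds 30.8% of the probes tested. Within this corner the deviation of Y_Sham 4 from the other 3 sham animals had an SD of 1.16, against 0.625 outside it. The other 7 arrays, each set against the other 3 of its group, had SDs of 0.365 to 0.61 in the same place. The corner was found after the values were seen, and results that rest on it are given with and without it below. Without it, the probes concerned have 3 sham animals in the fit. The array of Y_Sham 3 was high for genes of the meninges, described further on. By slide, Y_Sham 1, Y_Sham 2 and Y_iTBS 1 shared slide 5 and the second scan batch, and Y_Sham 4 and Y_iTBS 2 to 4 shared slide 3 of the first batch. Y_Sham 3 was the only one of the 24 first cortex arrays on slide 2 of that batch. A fit with the slide as a fixed block therefore takes Y_Sham 3 out of the comparison.

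**Figure D1:**
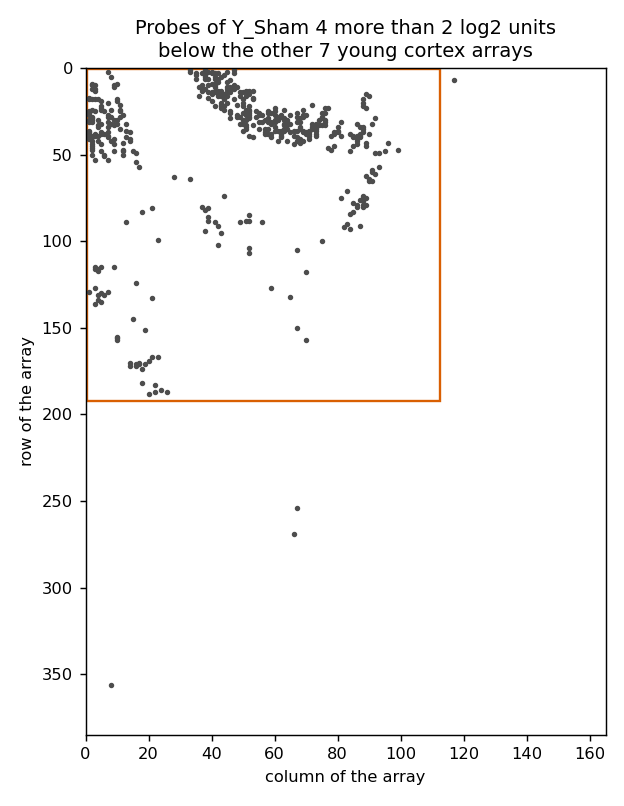
Position on the array of the 472 probes at which Y_Sham 4 was more than 2 log2 units below the other 7 young cortex arrays, with the column of the array on the x axis and its row on the y axis. Each point is a probe, the box marks the corner described above, and 463 of the points lie inside it.

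limma called 0 of 32603 probes (0%) between Y_iTBS and Y_Sham at an adjusted p under 0.05. At an unadjusted limma p under 0.05 there were 947 (2.9%), of which 389 (1.19%) were higher and 558 (1.71%) lower after iTBS. The 4 iTBS animals lay above all 4 sham animals for 207 probes (0.635%) and below them for 349 (1.07%). Over 1 probe for each of 13336 named genes, 67 (0.502%) lay wholly above and 145 (1.09%) wholly below, and 108 (0.81%) and 185 (1.39%) had an unadjusted p under 0.05. Of the 389 higher probes, 277 lay in the corner of the Y_Sham 4 array (2.76% of the probes there) and 107 outside it (0.515%). Of the 558 lower ones, 231 lay in the corner (2.3%) and 317 outside (1.52%), and the remaining probes have spots in both places. The 95% confidence interval of the difference lay within 1 log2 unit of 0 on both sides for 80.9% of the named genes, and its median half-width over all probes was 0.5. A difference smaller than the half-width of its own probe could not be told from the spread between animals with 4 animals a group.

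The 12 genes higher and the 12 lower after iTBS with the smallest limma p, among those that separated the groups completely, were examined, and 22 of them are described next. None passed the threshold, and the values that chose them are a description. An exact permutation test of 4 against 4 animals gives each of them its smallest possible two-sided p, 0.0286. This outcome was fixed in advance, because the genes were chosen for complete separation. All 12 higher genes and 6 of the 12 lower ones have their spots in the corner of the Y_Sham 4 array, against 37.2% of named genes. With the corner left out, 6 of 12 higher and 12 of 12 lower genes had an unadjusted p under 0.05.

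Timd2 (NM_001013855), a rodent receptor of the T cell immunoglobulin and mucin family known to bind H-ferritin, had the smallest p. Its normalized log2 signal was -3.31, -4.87, -2.10 and -4.14 in Y_Sham 1 to 4 and -1.53, -0.46, -1.11 and -1.06 in Y_iTBS 1 to 4. The stimulated animals all lay above the sham animals, with Y_Sham 3 the highest of the sham group, and the probe was well above background on 1 of 4 sham and 4 of 4 iTBS arrays. The difference was 2.56 (SE 0.459, 95% confidence interval 1.61 to 3.52, limma p 1.65e-05, adjusted p 0.538). It was 2.24 within the first scan batch and 2.56 within the second, and 2.38 (limma p 0.000116) with the corner left out. With the slide as a fixed block it was 3.27 (limma adjusted p 0.0321), and without Y_Sham 3 it was 3.07 (limma adjusted p 0.0118). These were the only settings in which any probe passed in limma, and both take Y_Sham 3 out of the comparison. Within slide 3, where Y_Sham 4 was the only young sham animal, the difference was 3.27.

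The hippocampus of the same animals gave a like order for Timd2. There the signal was -3.81, -3.66, -1.28 and -3.79 in the sham animals and -1.39, -1.06, -0.86 and -1.05 in the iTBS animals. Y_Sham 3 was again the highest sham animal, and it overlapped Y_iTBS 1. The hippocampal difference was 2.04 (SE 0.48, limma p 0.000376), and the cortex effect exceeded it by 0.52 (SE 0.377, limma p 0.181, adjusted p 1). On 2 repeat arrays of the Y_Sham 3 cortex the signal was -1.81 and -1.57. In the aged cortex the difference was 0.43 (SE 0.33, limma p 0.208).

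Camk2d (NM_012519), the delta subunit of calcium/calmodulin-dependent kinase II, read 1.40, 1.40, 1.11 and 0.51 in the sham animals and 1.75, 1.82, 1.72 and 1.71 in the iTBS animals. The iTBS animals lay within a narrow range, and Y_Sham 4 was the lowest. The difference was 0.64 (SE 0.229, limma p 0.0105), or 0.45 (p 0.0593) with the corner left out, and 0.67 (SE 0.232) in the hippocampus. Nrcam (NM_013150), a neuronal cell adhesion molecule, read 0.91, 0.54, 0.40 and 0.55 against 1.05, 1.38, 1.24 and 1.08. It did not rest on Y_Sham 4, differing by 0.59 (SE 0.224, limma p 0.0155) and by 0.58 (p 0.0306) with the corner left out. Its hippocampal difference was -0.05 (SE 0.178), and its cortex difference with the slide as a fixed block was 0.48 (limma p 0.0723). Srcin1 (NM_019378), an adaptor that restrains the kinase Src at synapses, was higher by 0.65 (SE 0.236), or 0.46 with the corner left out, while its other probe differed by -0.06 (SE 0.351).

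Slc29a4 (NM_001105911), the plasma membrane monoamine transporter, read 4.99, 4.77, 5.06 and 4.53 in the sham and 5.15, 5.77, 5.34 and 5.37 in the iTBS animals. The gap between the groups was narrow, from 5.06 in Y_Sham 3 to 5.15 in Y_iTBS 1. It differed by 0.57 (SE 0.211, limma p 0.0137), or 0.47 (p 0.0508) with the corner left out, and by -0.11 (SE 0.122) in the hippocampus. MAST1 (NM_181089), a microtubule-associated kinase, was higher by 0.48 (SE 0.148), with 6.64, 6.56, 6.76 and 6.25 in the sham and 6.92, 6.94, 7.02 and 7.24 in the iTBS animals. MAST1 differed by 0.40 (SE 0.157) in the hippocampus and by 0.38 in cortex with the corner left out.

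For Antxr1 and Snd1 a single low value in Y_Sham 4 made much of the difference. Antxr1 (NM_001044249), an adhesion receptor for collagen, read -0.48, -0.69, -0.05 and -3.55 in the sham and -0.007, 0.42, 0.34 and 0.24 in the iTBS animals. Its difference was 1.44 (SE 0.463), and 0.65 (SE 0.206, limma p 0.00485) with the corner left out. Snd1 (NM_022694), an RNA-binding nuclease and coactivator, read 2.88, 2.80, 2.85 and 1.63 against 3.19, 3.28, 3.21 and 3.16. Its difference went from 0.67 (SE 0.238) to 0.37 (SE 0.191, limma p 0.0674). Further higher genes were Usp48, a deubiquitinating enzyme (0.42, or 0.30 with the corner left out), Ltbp3, which binds latent TGF-beta (0.56, or 0.33), and Ddx56, an RNA helicase of ribosome assembly (0.39, or 0.32).

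Among the lower genes, Chmp1b (NM_001109533), a subunit of the ESCRT-III complex that cuts membranes, had the smallest p. It read 3.61, 3.70, 3.80 and 3.42 in the sham and 2.92, 2.79, 2.86 and 2.82 in the iTBS animals. The groups were far apart for their spread, with a difference of -0.79 (SE 0.171, limma p 0.000156, adjusted p 1), and -0.86 with the corner left out. A second probe of Chmp1b pointed the other way, by 0.65 (SE 0.225, limma p 0.00846), so no direction can be given for the gene. In the hippocampus the first probe differed by -0.89 (SE 0.207).

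Cpox (NM_001037095), coproporphyrinogen oxidase of heme synthesis, read 1.44, 1.69, 1.63 and 2.36 in the sham and 1.29, 0.49, 0.82 and 1.03 in the iTBS animals. Y_Sham 4 was here the highest value, and without the corner the difference went from -0.87 (SE 0.207) to -0.68 (SE 0.197, limma p 0.00263). Entpd7 (NM_001107595), an intracellular nucleoside triphosphatase, read -1.29, -1.09, -0.87 and -1.68 against -1.68, -2.52, -2.33 and -1.99. The groups came close at Y_Sham 4 and Y_iTBS 1, and its spots lie outside the corner. Entpd7 was lower in cortex by 0.90 (SE 0.259) and differed by 0.03 (SE 0.182) in the hippocampus. The difference between the regions was -0.93 (SE 0.265, limma p 0.00221, adjusted p 1), a test that contains the cortex values by which the gene was chosen.

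LOC100909970 (NR_110686), a noncoding RNA, read -0.35, -0.74, -0.67 and -0.77 in the sham and -1.65, -2.29, -1.42 and -1.83 in the iTBS animals. It had the largest difference of the 12 lower genes and lies outside the corner, with a value of -1.16 (SE 0.353, limma p 0.00357). Its difference was -0.60 (SE 0.498) in hippocampus and 0.61 (SE 0.254) in aged cortex. Mia (NM_030852), a small secreted protein known from cartilage and melanoma, read 0.56, -0.12, 0.83 and -0.43 against -0.52, -0.68, -0.49 and -0.52. The sham values were scattered over more than 1 log2 unit and the iTBS values lay together. Mia differed by -0.76 (SE 0.237) in cortex and by -0.65 (SE 0.258) in hippocampus. With the slide as a fixed block its cortex difference was -0.39 (limma p 0.0723), and within slide 3 it was -0.13.

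Sdr42e1 (NM_001271269), a short-chain dehydrogenase, read 2.20, 2.44, 2.16 and 2.58 against 1.80, 1.67, 1.64 and 1.71. It also lies outside the corner, and it differed by a similar size in both regions, -0.64 (SE 0.214) in cortex and -0.69 (SE 0.179) in hippocampus. Casq2 (NM_017131), calsequestrin of calcium stores, differed by -0.72 (SE 0.231) and -0.59 (SE 0.25) in cortex and hippocampus. With the slide as a fixed block the cortex difference of Casq2 was -0.43 (limma p 0.0743). Sox7 (NM_001106045), an endothelial transcription factor, differed by -0.65 (SE 0.21) in cortex and -0.05 (SE 0.272) in hippocampus. Ptges3l (-0.61), the olfactory receptor Or2t48e (-0.61) and the Golgi protein gene Tvp23b (-0.46) were also among the lower genes.

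**Figure D2:**
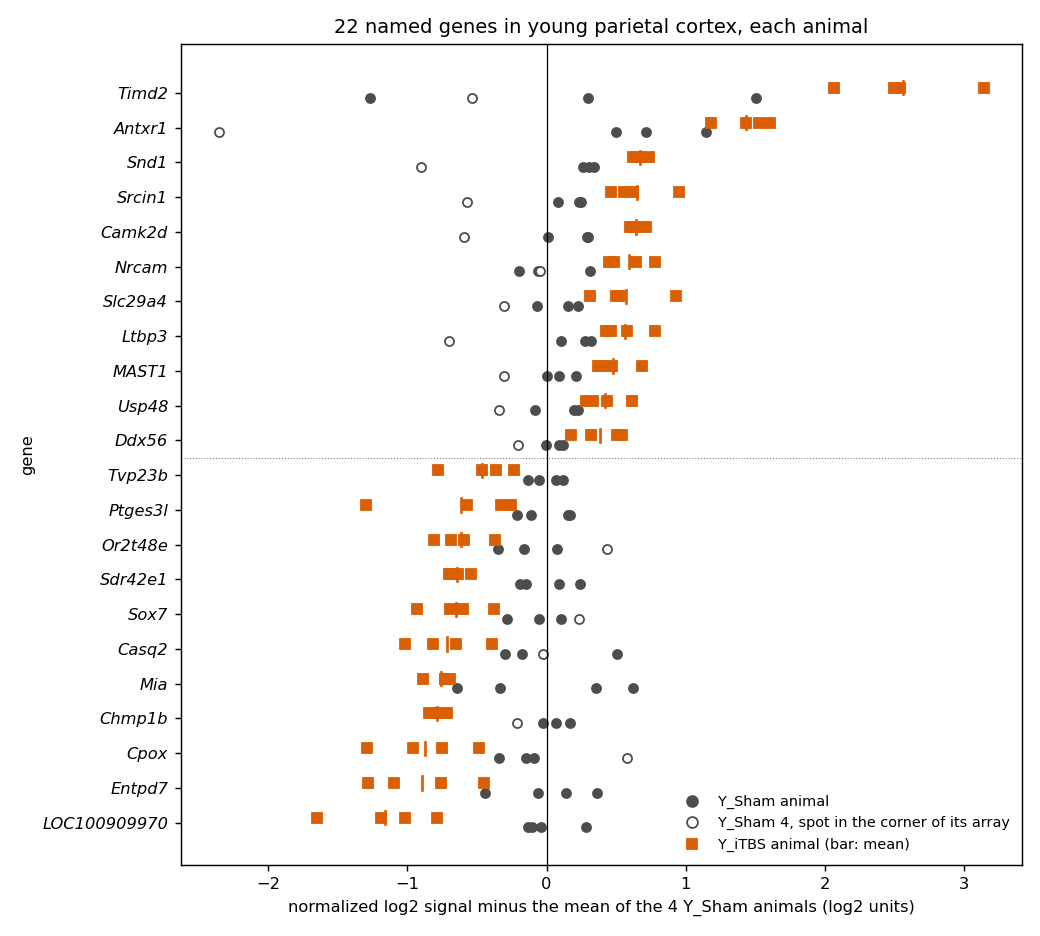
Normalized log2 signal of each of 22 of these genes in the 8 young cortex arrays, given relative to the mean of the 4 Y_Sham animals (x axis, log2 units). Circles are sham animals (open where the spot of Y_Sham 4 lies in the corner of its array), squares are iTBS animals, and vertical bars are the iTBS means. Groups do not overlap in any row because the genes were chosen so, and in Antxr1, Snd1 and Ltbp3 the open circle lies far to the left of the other sham animals.

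In the hippocampus of the same animals, 19 of these 24 genes differed in the same direction as in cortex and 9 had an unadjusted limma p under 0.05, where 1647 of 32417 hippocampal probes did (5.08%). The 9 were Timd2, MAST1, Antxr1, Camk2d, Chmp1b, Ptges3l, Mia, Casq2 and Sdr42e1. Both regions come from the same animals, so that effects of stimulation and differences between animals from before it cannot be told apart by this comparison. In the cortex of the aged rats, which are other animals, 10 of the 24 differed in the same direction as in the young and 2 had an unadjusted p under 0.05 (2.72% of probes did). These were Chmp1b, at -0.27 (SE 0.123), and LOC100909970, in the opposite direction. limma called 0 of 33720 probes (0%) for a difference between the young cortex and young hippocampus effects, with 967 (2.87%) at an unadjusted p under 0.05. For the young minus the aged effect in cortex it called 0 of 32603 (0%), with 1043 (3.2%) at an unadjusted p under 0.05.

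**Figure D3:**
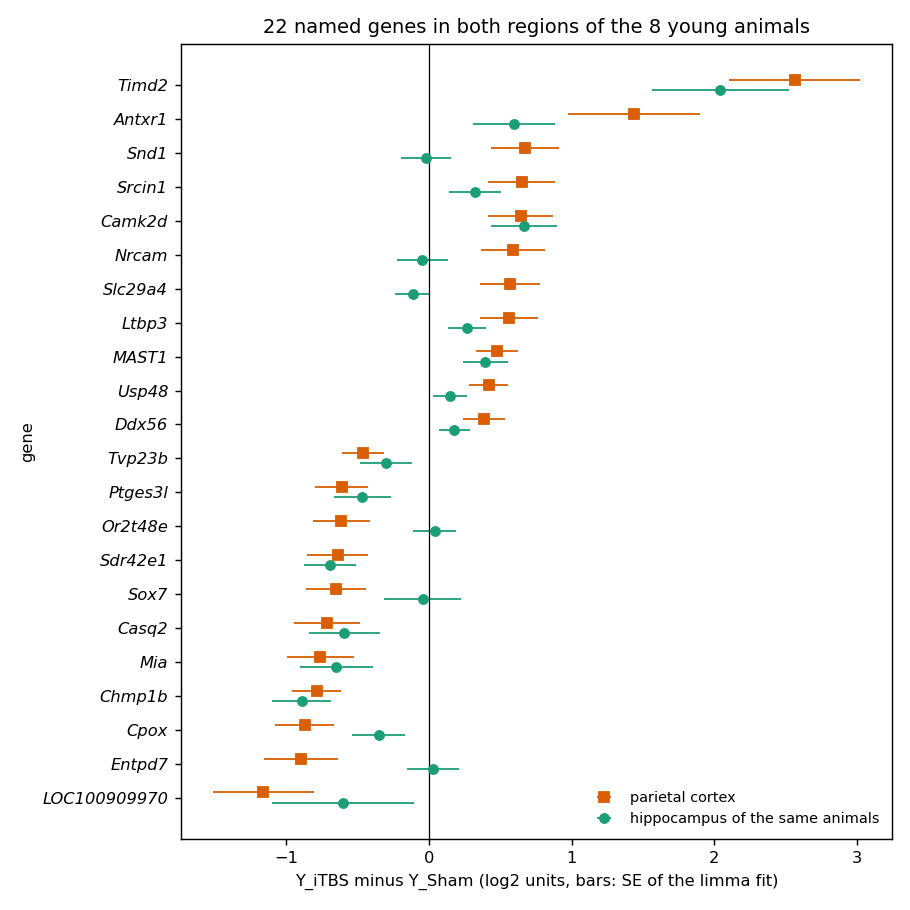
Y_iTBS minus Y_Sham difference of the same 22 genes (x axis, log2 units) in parietal cortex (squares) and in the hippocampus of the same 8 animals (circles), with bars for the SE of the limma fit. Timd2, Camk2d, Chmp1b and Sdr42e1 differ by like amounts in both regions, while Snd1, Slc29a4, Nrcam, Entpd7 and Or2t48e lie near 0 in hippocampus.

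Gene lists were read by their counts and medians beside those of all tested probes, which had a median difference of -0.011 with 52.3% lower, and of all named genes, at -0.021 with 55.4% lower. The list farthest from these was that of meninges and fibroblasts, the collagen-rich coverings of the cortex, of which 16 of 16 genes were lower after iTBS, with a median of -0.81. None had an unadjusted p under 0.05, and 4 of 16 lay wholly below the sham animals (Aldh1a2, Col3a1, Islr and Lum), where 1.09% of named genes did. The mean level of the list was 2.59, 2.88, 3.99 and 2.42 in Y_Sham 1 to 4 and 2.11, 2.44, 2.22 and 2.07 in Y_iTBS 1 to 4. Y_Sham 3 stood far above the rest, and Y_iTBS 2 overlapped Y_Sham 4. The 2 repeat arrays of Y_Sham 3 read 4.05 and 3.97. Without Y_Sham 3 all 16 were still lower, by a median of -0.49. With the slide as a fixed block, which also takes out Y_Sham 3, the median was -0.29.

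Ogn (NM_001106103), osteoglycin of the connective tissue matrix, read 1.97, 2.54, 4.52 and 1.90 in the sham and 1.15, 1.94, 1.22 and 1.23 in the iTBS animals. Aldh1a2 (NM_053896), the retinoic acid synthesizing enzyme of the meninges, read 0.51, 0.71, 2.62 and 0.37 against -0.35, -0.005, 0.09 and -0.70. Both were highest in Y_Sham 3, and they differed by -1.35 (SE 0.731, limma p 0.0791) and -1.30 (SE 0.709, limma p 0.0823). Without that animal the differences were -0.76 (p 0.311) and -0.77 (p 0.295). The collagen genes Col1a1 and Col1a2 and the growth factor gene Igf2 were highest in Y_Sham 3 as well, at 3.79, 6.31 and 6.43, and differed by -0.94, -1.04 and -0.95. In the hippocampus of the same animals the median of the list was 0.05, and in aged cortex it was -0.92. In a block of tissue, fewer cells of a type and less RNA per cell cannot be told apart, and the amount of meninges taken with each block was not measured apart from these genes.

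Most genes of several immune lists were lower too. The meningeal list above moved beside them, with Y_Sham 3 at 3.99 and the other 7 animals at 2.07 to 2.88, and its part in them was not tested. In MHC class II, the proteins that present antigen to helper T cells, 6 of 8 genes were lower, with a median of -0.36 (-0.29 without Y_Sham 3). RT1-Da (NM_001008847), a class II alpha chain, read 0.03, 0.18, 1.2 and -0.79 in the sham and -0.51, -1.04, -0.93 and -3.12 in the iTBS animals. The highest was Y_Sham 3 and the lowest Y_iTBS 4, and the groups overlapped at Y_Sham 4. It was the only gene of the list with an unadjusted p under 0.05 (difference -1.55, SE 0.726, limma p 0.0444, adjusted p 1), and without Y_Sham 3 the p was 0.136. RT1-DMa and RT1-DMb, which help load peptide onto class II molecules, differed by 0.07 each. The mean level of the list was 0.24, 0.26, 0.74 and 0.00 in the sham and 0.17, -0.32, 0.01 and -0.64 in the iTBS animals.

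Of 38 cytokine, chemokine and receptor genes tested, 27 were lower, with a median of -0.27, or -0.12 without Y_Sham 3. The chemokine Ccl9 (NM_001012357) read -0.59, -0.94, -0.91 and -1.06 in the sham and -1.39, -1.59, -1.31 and -1.20 in the iTBS animals. Its groups did not overlap, and the difference was -0.50 (SE 0.185, limma p 0.0135, adjusted p 1), -0.38 and -0.63 within the scan batches and -0.03 (SE 0.162) in hippocampus. The chemokine Ccl19, made in lymphoid tissue and barrier linings, read 1.75, 3.01, 4.51 and 0.90 against 1.28, 1.16, 1.58 and 1.05, with Y_Sham 3 again the highest. It differed by -1.28 (SE 0.83), or by -0.62 without that animal. A further 16 members on the array were not tested because they were too rarely above background, among them Il10, Cxcl1 and Cxcl2.

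Of 16 Toll-like receptor and adaptor genes tested, 13 were lower, with a median of -0.14. Tlr9 (NM_198131), the receptor for unmethylated CpG DNA, read -1.21, -0.97, -1.48 and -1.88 in the sham and -1.12, -2.57, -2.99 and -2.58 in the iTBS animals. The probe was well above background on 3 of 4 sham and 1 of 4 iTBS arrays. Y_iTBS 1 lay within the sham range and the other 3 iTBS animals below it, with a difference of -0.93 (SE 0.424, limma p 0.0399), which was -1.04 within the first scan batch and -0.03 within the second. Tlr10 (NM_001146035) read 0.01, -2.88, -1.93 and -3.76 in the sham and -5.07, -4.85, -3.97 and -4.71 in the iTBS animals. It was well above background on 2 of 4 sham and 0 of 4 iTBS arrays, so that only a bound can be given, at least 1.86-fold higher in sham (limma adjusted p 1). The bound rested on Y_Sham 1, and was 1.13-fold without it. Such a bound sets the mean of the sham animals against, on each iTBS array, the higher of the probe's own signal and the lowest signal well above background.

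Interferon-induced genes, the antiviral program of most cell types, were lower in 21 of 27 cases, with a median of -0.21, or -0.12 without Y_Sham 3. Ifi44 (NM_001107729) read 2.62, 2.75, 2.69 and 2.22 in the sham and 2.13, 2.23, 2.09 and 2.14 in the iTBS animals. Y_Sham 4 lay among the iTBS animals. The difference was -0.42 (SE 0.166, limma p 0.0188) and -0.51 (SE 0.201) in hippocampus, but a second probe of Ifi44 differed by 0.01 (SE 0.382). Mx1 and Stat2 of the same list differed by 0.37 (SE 0.19) and 0.39 (SE 0.21), the latter by 0.11 without Y_Sham 4. Of the MHC class I list 12 of 15 genes were lower, with a median of -0.10, or -0.20 without Y_Sham 4 and -0.04 without Y_Sham 1. The class I gene RT1-T24-4 differed by -0.21 (SE 0.177) by 1 probe and by -0.42 and -0.47 by others. Class I genes are close copies of each other, so a probe may read more than 1 of them. Of the complement genes 14 of 22 were lower, with a median of -0.04, which was 0.05 without Y_iTBS 4 and -0.17 without Y_iTBS 2. Cfi, a protease that inactivates complement, passed background on 2 of 4 sham and 0 of 4 iTBS arrays. The bound was at least 1.04-fold higher in sham, and was lost without Y_Sham 3. Cd59b, an inhibitor of the membrane attack complex, differed by -0.17 (SE 0.12), C1s by -0.27 (SE 0.19), Serping1, the C1 inhibitor, by -0.54 (SE 0.49, or -0.19 without Y_Sham 3), C1qa by 0.14 (SE 0.2) and C3 by 0.09 (SE 0.27).

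Microglial genes gave a median of 0.05, with 13 of 20 higher. P2ry12 (NM_022800), the purinergic receptor of resting microglia, read 5.60, 5.22, 5.38 and -0.95 in the sham and 5.44, 6.22, 5.68 and 5.20 in the iTBS animals. Without the corner of the Y_Sham 4 array its difference went from 1.82 (SE 0.875, limma p 0.0499) to 0.24 (SE 0.197, p 0.245). Cd163 (NM_001107887), the hemoglobin receptor of macrophages at the borders of the brain, read -1.37, -0.72, 0.05 and -1.29 against -1.58, -1.83, -1.71 and -1.64. Its groups did not overlap and Y_Sham 3 was the highest, with a difference of -0.86 (SE 0.44, limma p 0.0617). Aif1, Cx3cr1 and Tyrobp overlapped between groups, and differed by 0.11, -0.28 and 0.05. Mrc1, a further marker of border macrophages, was not well above background on any of the 8 arrays.

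**Figure D4:**
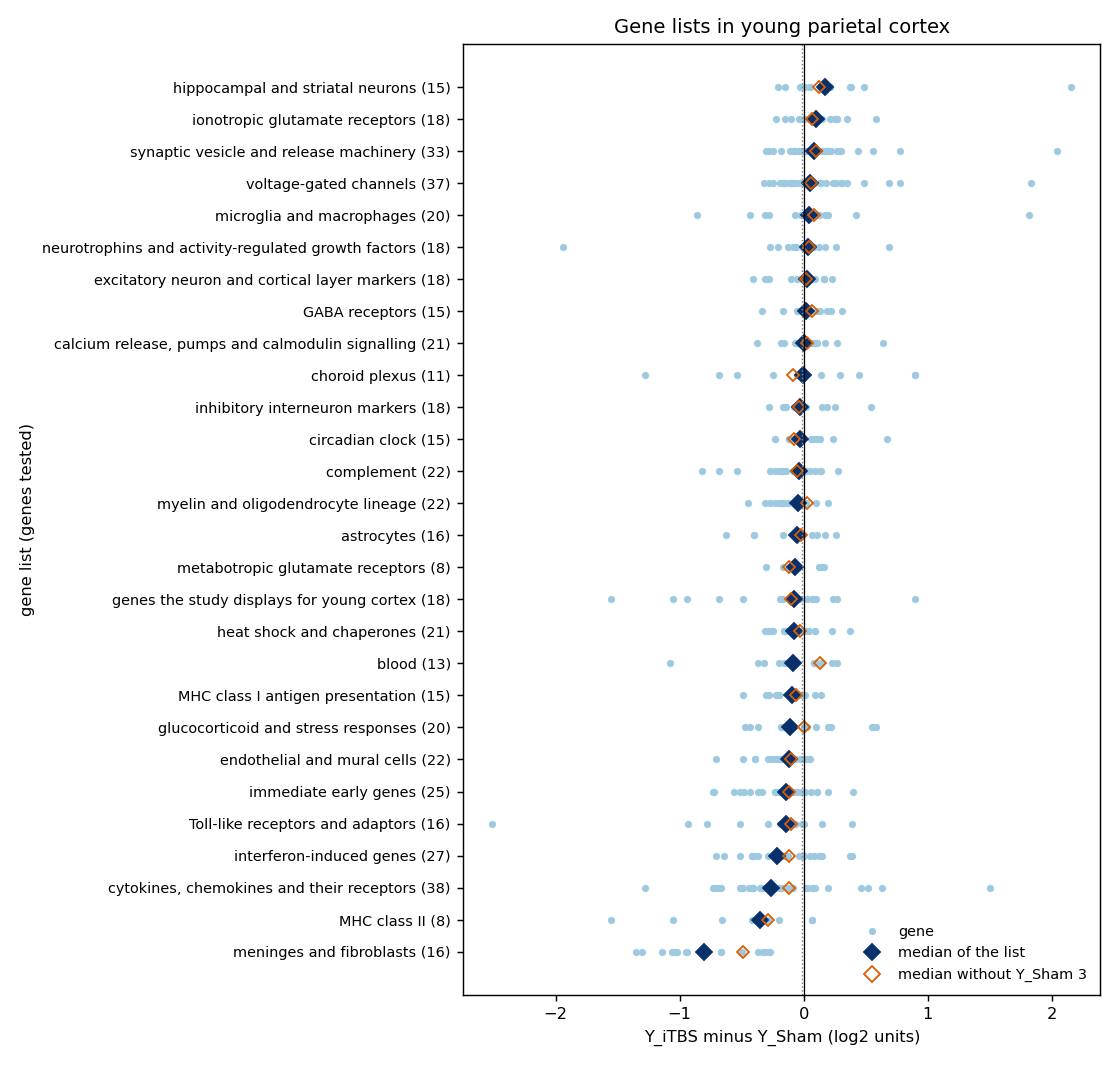
Y_iTBS minus Y_Sham difference in young parietal cortex (x axis, log2 units) for 28 gene lists, ordered by their median. Dots are genes, filled diamonds are medians, open diamonds are medians without Y_Sham 3, and the dotted line is the median of all probes tested. The list of meninges and fibroblasts lies lowest, at -0.81, with an open diamond at -0.49.

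Neuronal lists lay close to 0 or slightly above. Of 18 ionotropic glutamate receptor genes 13 were higher, with a median of 0.10 (-0.05 with the slide as a block and 0.18 with the corner left out). Of 8 metabotropic ones 3 were higher, with a median of -0.07, or 0.02 with the corner left out. Grin3a (NM_138546), an NMDA receptor subunit that lowers calcium entry, read 1.31, 1.94, 1.45 and 2.62 in the sham and 1.99, 3.12, 2.49 and 2.03 in the iTBS animals. The groups overlapped through Y_Sham 4, and the difference was 0.58 (SE 0.294, limma p 0.0623), 0.98 (SE 0.307) in hippocampus and -0.26 (SE 0.211) in aged cortex. Within slide 3 it was -0.07. Gria1, Gria2, Grin1 and Grin2a differed by 0.15, -0.04, 0.11 and 0.06. GABA receptor genes had a median of 0.02, with 9 of 15 higher, among them Gabrb1 at 0.31 (SE 0.161), whose spot on the Y_Sham 4 array was left out as an outlier of the scanner software, so that 3 sham animals enter its fit.

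The interneuron markers Gad1 and Pvalb differed by -0.07 (SE 0.22) and -0.15 (SE 0.14), and the list had a median of -0.03. Excitatory and cortical layer markers had a median of 0.02, with 11 of 18 higher. Foxp2 (NM_001271104), a marker of deep layers, read 1.57, 2.11, 1.49 and 1.85 in the sham and 2.08, 0.80, 1.16 and 1.33 in the iTBS animals. It was lower in Y_iTBS 2 to 4 than in all sham animals, but not in Y_iTBS 1, and the difference was -0.41 (SE 0.24, limma p 0.1). Its other probe differed by 0.00 (SE 0.338).

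Of 33 genes of synaptic vesicles and release 21 were higher, with a median of 0.08. Their mean level was 4.68, 4.68, 4.72 and 4.50 in the sham and 4.8, 4.82, 4.74 and 4.85 in the iTBS animals. The groups did not overlap, but several members rested on the corner of the Y_Sham 4 array. Cplx1 (NM_022864), complexin of fast release, read 5.33, 5.32, 6.05 and -2.17 against 5.31, 5.85, 5.78 and 5.72, and its difference of 2.04 (SE 1.08) was 0.10 without Y_Sham 4. Syp (NM_012664), synaptophysin of the vesicle membrane, differed by 0.78 (SE 0.376, limma p 0.0502), or 0.37 (p 0.286) with the corner left out. Pclo, a scaffold of the active zone, differed by 0.56, or 0.21, and its 3 other probes by 0.02, 0.02 and 0.32. With the corner left out the median of the list was 0.13, with 9 of 33 lower. Snap25, Bsn and Vamp2 differed by -0.07, 0.19 and 0.15.

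Among 37 voltage-gated channel genes the median was 0.05. Cacna1e (NM_019294), the R-type calcium channel, read 1.08, 0.74, 0.09 and -4.22 in the sham and 0.90, 1.78, 1.45 and 0.89 in the iTBS animals, and its difference of 1.83 (SE 0.734, limma p 0.0213) became 0.62 (SE 0.366, p 0.108) with the corner left out. Cacna1c and Scn8a, an L-type calcium and a sodium channel, lay just above the sham range in all iTBS animals, with differences of 0.24 (SE 0.17) and 0.35 (SE 0.26), and the M-current channel gene Kcnq3 just below it, with -0.32 (SE 0.3). The list had 3 of 37 (8.11%) non-overlapping genes, where 1.59% of named genes were. Calcium release, pump and calmodulin genes had a median of 0.004, with Camk2d the only one at an unadjusted p under 0.05. The list of hippocampal and striatal neurons had 12 of 15 genes higher and a median of 0.17. In it Rgs9 (NM_019224), a striatal regulator of G-protein signaling, read 3.77, 3.61, 3.09 and -4.30 against 3.92, 3.50, 3.61 and 3.76, and its difference went from 2.15 (SE 1.07) to 0.21 (SE 0.229) with the corner left out.

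Immediate early genes were lower in 19 of 25 cases at 48 h, with a median of -0.14, and none had an unadjusted p under 0.05. Fos (NM_022197) read 1.22, 3.20, 2.64 and 0.74 in the sham and 2.00, 0.52, 1.47 and 0.87 in the iTBS animals. Y_Sham 2 and Y_Sham 3 were high and the other 2 sham animals lay within the iTBS range, which gave a difference of -0.73 (SE 0.71). Arc (NM_019361) had the same 2 high sham animals, at 6.37, 7.27, 7.48 and 6.68 against 7.01, 6.02, 6.43 and 6.12, with a difference of -0.56 (SE 0.54). Egr1 and Npas4 differed by -0.48 (SE 0.35) and -0.72 (SE 0.72), and Egr3 by 0.40 (SE 0.226, limma p 0.0899). The median of the list was -0.33 without Y_Sham 4, -0.23 with the corner left out, -0.07 without Y_Sham 2 and -0.06 without Y_iTBS 2. In the hippocampus the median of the list was -0.04. The mean level in cortex ran from 3.25 to 3.78 in the sham and from 3.1 to 3.55 in the iTBS animals, so that the groups overlapped.

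Neurotrophins and activity-regulated growth factors had a median of 0.03, with 10 of 18 higher. Ntf4 (NM_013184), neurotrophin-4, a ligand of TrkB, read -2.90, -0.91, -1.73 and 0.10 in the sham and -2.91, -3.23, -3.76 and -3.31 in the iTBS animals. It passed background on 3 of 4 sham and 0 of 4 iTBS arrays, so only a bound can be given, at least 2.94-fold higher in sham (limma p 0.00926, adjusted p 1). Y_Sham 1 and Y_iTBS 1 lay side by side, so that the groups barely separated, and without Y_Sham 4 the bound was 2.10-fold. Bdnf (NM_012513), the main TrkB ligand of the cortex, read 2.28, 2.21, 2.23 and 2.23 against 2.51, 1.35, 2.05 and 2.19. Its sham animals were nearly alike, Y_iTBS 2 was low, and the difference was -0.21 (SE 0.22).

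**Figure D5:**
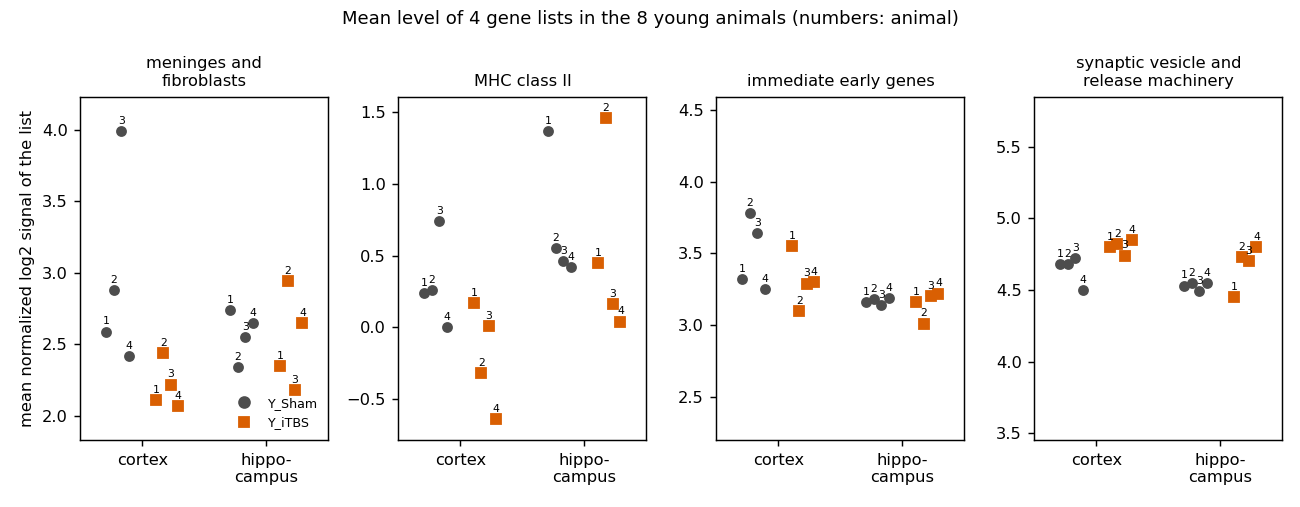
Mean normalized log2 signal (y axis) of 4 gene lists in each of the 8 young animals, in cortex and in hippocampus, with the number of the animal above each point. Circles are Y_Sham and squares Y_iTBS animals, the 4 panels span equal heights of the axis, and levels are not compared between panels. Y_Sham 3 lies at 3.99 in the cortex panel of meninges and fibroblasts and within the other animals in hippocampus.

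Glial, vascular and systemic lists had small medians. Most genes of the astrocyte, myelin and endothelial lists were lower all the same, at 75%, 81.8% and 86.4%, against 55.4% of named genes. For the MHC class I and complement lists these shares were 80% and 63.6%. Of the astrocyte genes 12 of 16 were lower, with a median of -0.05 (0.05 without Y_Sham 1 or Y_iTBS 1). Vim, an intermediate filament gene, and Gjb6, a connexin gene, had the smallest p, at -0.63 (SE 0.431) and -0.40 (SE 0.263), or -0.38 and -0.25 without Y_Sham 3, while Gfap differed by 0.17 (SE 0.33). Of the myelin genes 18 of 22 were lower, with a median of -0.05 (0.03 without Y_Sham 3 and -0.22 without Y_Sham 2). Mal and Ugt8, a myelin proteolipid and an enzyme of myelin lipids, differed by -0.45 (SE 0.324) and -0.27 (SE 0.226), and Mbp, the highest of the list, by 0.20 (SE 0.19). Endothelial and mural genes were lower in 19 of 22 cases, with a median of -0.12, -0.02 with the slide as a block or without Y_Sham 1, and -0.30 without Y_Sham 4. Abcg2 (NM_181381), an efflux transporter of the blood-brain barrier, read 3.87, 3.78, 3.97 and 3.60 in the sham and 3.06, 3.81, 2.92 and 3.44 in the iTBS animals. Y_iTBS 2 lay within the sham range and the other 3 below it, with a difference of -0.49 (SE 0.207, limma p 0.0265, adjusted p 1) and -0.49 (SE 0.205) in hippocampus. The endothelial genes Vwf, Tek and Pecam1 differed by -0.39 (SE 0.23), -0.23 (SE 0.17) and -0.21 (SE 0.18), and the tight junction gene Cldn5, the highest of the list, by 0.05 (SE 0.21). Blood genes were spread widely within both groups, with Hba-a1 from 8.38 to 10.12 in the sham animals.

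Choroid plexus genes had a median of -0.01, and the plexus transporter gene Slc4a5 was not well above background in either group. Ttr, secreted in bulk by the plexus, read 5.44, 5.03, 5.14 and 5.84 in the sham and 7.08, 5.64, 5.48 and 6.84 in the iTBS animals. Y_iTBS 1 and Y_iTBS 4 lay more than 1 log2 unit above most others, and the difference was 0.90 (SE 0.955). Glucocorticoid and stress genes had a median of -0.11, and 0.00 without Y_Sham 3. Fkbp5, induced by glucocorticoids, differed by 0.00 (SE 0.15), and Errfi1, a feedback inhibitor of EGF receptor signaling, by -0.47 (SE 0.223, limma p 0.0481), or -0.20 (p 0.297) with the corner left out. Circadian genes had a median of -0.03. Among them Bhlhe40 read 2.14, 1.73, 3.32 and 2.43 against 3.25, 3.06, 2.81 and 3.18, with Y_Sham 3 the highest of all 8 and the other sham animals below all iTBS animals. It differed by 0.67 (SE 0.409), or by 0.97 (limma p 0.0298) without Y_Sham 3. Heat shock and chaperone genes had a median of -0.08, with 20 of 21 confidence intervals within 1 log2 unit of 0.

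The genes displayed for young cortex in the study were chosen on these samples, so their direction is not independent of the values given here. Of 22 such genes 18 were tested, 11 were lower, the median was -0.08 and 2, RT1-Da and Abcg2, were lower at an unadjusted p under 0.05, where 1.39% of named genes were. Some had the direction the study displays, such as RT1-Da, Cd74 and Abcg2, lower in both. Others did not, such as Adam7, higher in the study and at -0.94 (SE 0.961) here. Ppp1r16b was lower in the study and at 0.24 (SE 0.268) here. Cd74 (NM_013069), the invariant chain of class II molecules, read 1.73, 1.76, 2.97 and 1.59 in the sham and 1.34, 1.28, 1.34 and -0.11 in the iTBS animals. The groups did not overlap, and 1 animal of each group stood far out, on opposite sides. Its difference was -1.05 (SE 0.666), or -0.73 (limma p 0.317) without Y_Sham 3. Adam7, Prg2 and Ttr varied most between animals, with SEs of 0.961, 0.958 and 0.955, so that a difference of 1 log2 unit would have been about the size of its error. The glutamate receptor genes Grin2d and Grm2 differed by 0.27 (SE 0.29) and -0.12 (SE 0.318), and their other probes by -0.15 and 0.08. Sorl1, Sema6c, S100b, Ryr2 and Otof differed by 0.03, -0.03, 0.07, 0.08 and -0.04, each less than its SE.

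The study's way of selecting genes joins analysis of variance with limits on the size of the change and a false discovery rate below 0.3. Its methods do not give every step, so the selection was rebuilt here and need not match the study's own. By it 45 of 45216 probes (0.0995%) were kept, 22 higher and 23 lower. The study itself lists many more changed genes for young cortex, and most of those are lower after iTBS. The reason for this difference was not tested. Of the 45 probes kept here, 41 had an unadjusted limma p under 0.05, and 21 carried a gene symbol. Both probes of Chmp1b were among them, in opposite directions. So were Snd1, Camk2d, Srcin1, Nrcam, Cpox, Ptges3l, Sdr42e1 and Cd74, described above. Further genes with a symbol, given because the rule kept them, were higher for Prkacb, a catalytic subunit of protein kinase A (0.74), Ctu1 (0.84), the cytokine Ctf1 (0.65), Sfmbt2 (0.80), Btbd9 (0.78) and Lbhd2 (0.77). They were lower for the matrix-associated Aebp1 (-0.94), Ptgds, the prostaglandin D synthase of meninges and plexus (-0.90), and the prostaglandin transporter gene Slco2a1 (-0.97). Ptgds, Slco2a1 and Cd74 had an unadjusted limma p of 0.0833 or more.

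With the corner of the Y_Sham 4 array left out, the same naming rule gave another set of genes, chosen after these values were seen. Higher in all iTBS animals than in the remaining sham animals were Timd2 and Antxr1, followed by the actin gene Actb (0.37, SE 0.126), Fezf2, a transcription factor of deep-layer neurons (0.36, SE 0.129), Cgref1 (0.43), the protease inhibitor Cst6 (0.53) and the adhesion molecules Cntn5 and Cadm3 (0.86 and 0.65). In Y_Sham 4 itself, Actb, Fezf2 and Cgref1 read 9.03, 5.47 and 2.76, above all 4 iTBS animals. Its values of Cst6, Cntn5 and Cadm3, at 6.43, -1.57 and 3.14, lay within the iTBS ranges. Lower were Or6al2, an olfactory receptor (-0.71, SE 0.14, limma p 6.38e-05, adjusted p 0.693), Chmp1b, Csad, an enzyme of taurine synthesis (-0.73, SE 0.183), and Ppara, a nuclear receptor of fatty acid oxidation (-0.63, SE 0.175). Csad read 1.66, 1.70, 1.64 and 0.44 in Y_Sham 1 to 4 and 1.35, 0.85, 0.73 and 0.78 in the iTBS animals, so that the sham animal left out was the lowest of all 8. The values left out for Or6al2 and Ppara, 0.31 and 1.75, lay within the iTBS ranges of 0.11 to 0.39 and 1.64 to 2.00. In that fit limma again gave no probe below the adjusted threshold, and 325 higher and 659 lower probes had an unadjusted p under 0.05.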

How the data were processed

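RNA of frozen tissue was labeled with Cy3 and hybridized, 1 sample an array, to Agilent SurePrint G3 Rat v2 arrays. Per the file headers, the authors' Agilent Feature Extraction 12.0.3.1 gave background-subtracted, detrended spot intensities, with no normalization between arrays. The authors also deposited a score of each probe, its z value (log2 signal less the mean of the array, over its SD), which differed by at most 0.005 from that recomputed here and served as an alternative. Log2 intensities were turned into z-scores over the non-control probes of an array and brought back to log2 units by the average SD of an array, 4.09. Control spots and 267 to 1448 outlier spots an array were left out, and spots of a probe averaged.

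Probes well above background on at least 3 of the 24 first cortex arrays were tested with limma 3.58.1 (R 4.3.3, data.table version 1.17.8) over 6 group means, with Benjamini-Hochberg adjustment. Region differences were fitted within animals. Each symbol was represented by the probe of highest mean signal in the 8 young arrays. Symbols came from RefSeq's annotation of rat assembly GRCr8 through transcript accessions, for 21109 of 45598 probes. The number of arrays limits the precision. The 8 young cortex arrays are labeled as 8 separate rats, whose hippocampus was on further arrays.

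Genes were named by rule: the 12 higher and 12 lower of smallest p among those without overlap and well above background on all 4 arrays of a group, list members with an unadjusted p under 0.05 or otherwise the 2 of smallest p, and those the study displays. Further list members were named as familiar examples. Members, lists and genes were chosen with earlier results of these data known. Alternatives covered scaling, background correction, filters, repeats, slide, scan batch, replicate block and left-out animals. Confidence intervals are 95%. Simulated data were used to test the fit. The study's selection of genes was rebuilt from its methods, which do not give every step. Some genes that the rule named are not reported here. 1 array whose labels conflict was put in no group.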

Additional observations from a re-analysis of the deposited data

Results flagged for a closer look

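In 12 of 168 groups of 4 animals checked, 1 animal lay so far from the other 3 that its gap to them, divided by the range of the group, passed the 95% critical value of Dixon's test, and chance gives this in about 1 group in 20. On the array of Y_Sham 4, where a corner held most low spots, Snd1 read 1.63 (other sham animals 2.8 to 2.88), P2ry12 -0.95 (5.22 to 5.6) and Rgs9 -4.3 (3.09 to 3.77). All 3 genes have their spots in that corner. Y_Sham 3 stood high for Aldh1a2 at 2.62 (0.37 to 0.72), Vim, an intermediate filament gene, at 4.98 (3.91 to 4.02), Cd74 at 2.97 (1.59 to 1.76) and Sdf2l1, a chaperone gene, at 4.76 (4.15 to 4.22). Y_iTBS 4 stood low for Cd74 at -0.11 (1.28 to 1.34) and for Slc4a5 at -4.58 (-3.1 to -2.98), which was not well above background on any of the 8 arrays. Y_iTBS 2 stood high for Ogn at 1.94 (1.15 to 1.23). Y_iTBS 1 stood low for Htr3a, a serotonin receptor of interneurons, at 3.58 (4.12 to 4.2). Y_Sham 2 stood low for Prg2, an eosinophil granule protein, at -1.13 (1.1 to 1.47).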

How the results depend on the processing

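limma called 0 probes under all alternatives but 2, the slide as a fixed block (1, Timd2, difference 3.273) and without Y_Sham 3 (1, Timd2, 3.067). Both take Y_Sham 3 out of the comparison. Leaving out each animal gave 0 to 1 calls and 630 (without Y_iTBS 4) to 1528 (without Y_Sham 4) probes at an unadjusted p under 0.05, against 947. For the difference between cortex and hippocampus it gave 0 to 1 calls, 1 without Y_Sham 1. The selection rebuilt from the study's methods kept 45. Same-numbered animals did not deviate together (correlations -0.271 to 0.156), and with the replicate number as a replicate block the calls stayed at 0, and 1264 probes had an unadjusted p under 0.05. The slide blocks gave 2077 (fixed) and 1712 (random) such probes, the scan batch 1519, the 8 arrays alone 1086 and no filter 1447 of 45598. Differences of named genes under alternatives were judged by direction and side of the threshold, but those within a slide by direction alone. The exact permutation entry of a gene repeats its main difference, so it was counted as kept by construction. With these included, 2008 differences were counted as kept, 2 newly passed and 63 reversed, and the cause was not tested. Within slide 5, which holds 1 iTBS animal, these were Adam7 1.7, Cacna1e -0.014, Ccn2 0.288, Cfi 0.212, Enpp6 0.183, Foxp2 0.246, Grm2 0.035, Htr3a -0.117, Mis18a 0.077, Otof 0.899, Pclo -0.039, Ppp1r16b -0.213, RT1-T24-4 0.069 and Sema6c 0.067. Within slide 3, which holds 1 sham animal, they were Bag3 0.161, Cd59b 0.012, Gjb6 0.152, Grin3a -0.071, Grm4 -0.106, Prg2 -0.604, Ryr2 -0.237 and Sorl1 -0.279. With the slide as a fixed block they were Enpp6 0.079, Otof 0.155, Prg2 -0.084 and Ryr2 -0.051, as a random block Enpp6 0.013, Otof 0.089, Prg2 -0.148 and Sema6c 0.04, and with the scan batch Otof 0.026, Prg2 -0.125 and Sema6c 0.074. Scaling to the 75th percentile gave S100b -0.024 and Sema6c 0.001, quantile normalization S100b -0.018, and normexp, run on median spot signals, Sorl1 -0.043. Of the 3 alternatives chosen after seeing the data, leaving out both Y_Sham 3 and Y_Sham 4 gave Alas2 0.278, Mal 0.14, Otof 0.272, Pclo -0.039, Ryr2 -0.018, S100b -0.026 and Sorl1 -0.01, the repeat array of Y_Sham 3 gave Sorl1 -0.011, and leaving out the corner reversed none. Over the animals left out in turn, Grm2 ran from -0.335 to 0.15, Otof from -0.245 to 0.077, Prg2 from -0.497 to 0.652, Ryr2 from -0.058 to 0.242, S100b from -0.007 to 0.162, Sema6c from -0.121 to 0.104, Sorl1 from -0.135 to 0.153 and Tlr3 from -0.333 to 0.026. Of the list medians under alternatives 631 moved by less than the SD of the list's median over the 4 sham animals, and 13 by more. That SD includes Y_Sham 3 and Y_Sham 4, whose arrays stood apart, so it is a wide limit for some lists. Timd2, Ntf4, Cfi, Tlr9, Tlr10 and Slc4a5 were well above background on 0 to 5 of the 8 arrays, which limits their values.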
